A study of Mus musculus with 23 samples.

Results

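The 7 genes described here make or read retinoic acid or clear aldehydes in mouse pancreatic tumor cells, and they are Aldh1a1, Aldh1a3, Aldh2, Aldh3a1, Aldh3a2, Rarg and Rxra. They were found by their symbols among the 27207 genes of the deposited count table, and they had been chosen by their CPM values (counts scaled to a common library total) over all 6 groups of libraries. The differences between groups given for them are therefore a description with no test. All 7 passed the filter on low counts, as did 11144 genes in all. The bulk RNA sequencing covered 23 libraries. KC cells carried Ptf1a Cre/+ and KPC cells carried Pdx1 Cre/+, and the further alleles of both are not reported here. The ages of the mice are not given in the sources used here, and each genotype is 1 line from 1 mouse made with a different Cre driver, so that genotype, driver and line cannot be told apart. KC cells were grown as a 2D culture on plastic (n = 6), as organoids in Matrigel at day 13 (n = 3), and as organoids in floating collagen type I at day 7 (n = 3) and at day 13 in batch 1 (n = 5) and batch 2 (n = 3), and KPC cells were grown as collagen organoids at day 13 in batch 2 (n = 3). The 2D culture, the Matrigel organoids and the day 7 organoids belong to batch 1 by the labels. Organoids were freed with collagenase before lysis, whereas 2D cells were lysed directly.

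Vitamin A reaches cells as retinol bound to carrier proteins. Retinol and alcohol dehydrogenases turn it into retinal, the enzymes of the Aldh1a family oxidise retinal to retinoic acid, and retinoic acid binds receptors of the RAR family, which sit on DNA as pairs with an RXR receptor. Cyp26 enzymes break retinoic acid down. Other aldehyde dehydrogenases clear aldehydes from alcohol, lipid peroxidation and fatty alcohol metabolism, and high aldehyde dehydrogenase activity is a common label of progenitor-like cells in pancreatic tumors.

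Total counts ran from 1221451 to 2471058 per library, and each count is 1 unique molecular identifier (UMI) from the 3' end of a poly(A) RNA. The libraries of the 2D group fell into 2 sets, replicates 1 to 3 and replicates 4 to 6, and those of collagen day 13 in batch 1 into replicates 1 to 3 and 4 to 5, and values for the sets are given beside several of the results. The 2D sets also differed in depth and scaling. Replicates 1 to 3 had 1221451 to 1382736 counts and TMM scaling factors of 0.738 to 0.772. Replicates 4 to 6 had 1649327 to 2091391 counts and factors of 1.04 to 1.06. What sets them apart was not tested. All 8 ductal epithelial markers (keratins, Epcam, Cdh1, Sox9, Muc1) were present, with a summed level of 7608 to 14785 CPM. Of the markers of other cells in the table, 4 of 4 endothelial genes, 4 of 6 macrophage genes (Ptprc, Csf1r, Lyz2 and Aif1) and 3 of 8 fibroblast genes (Lum, Thy1 and Fap) had at most 3 counts in every library. Other fibroblast genes were present, led by the collagen genes Col1a2 (mean 61.1 CPM in 2D) and Col3a1 (32.8 CPM in 2D), and the fibroblast list summed to 59.5 to 180.4 CPM in 2D, 31.7 to 46.6 CPM in KPC and 41.1 to 100.3 CPM in the other groups. The stellate list summed to at most 30.1 CPM (4 of 7 genes in the table) and the acinar list to at most 20.4 CPM (3 of 7). The macrophage list, through Cd14 and Cd68, summed to 225 to 259 CPM in Matrigel, 179 to 223 CPM in 2D, 81.5 to 120 CPM in collagen at day 13 of batch 1, 50.7 to 62.0 CPM at day 7, 94.1 to 127 CPM in KC and 65.2 to 84.3 CPM in KPC organoids of batch 2, and the part of these lists in the results was not tested. A lower level in such bulk libraries can come from fewer cells of a type or from less RNA per cell, and these cannot be told apart. Most of the comparisons below share the collagen day 13 libraries of batch 1. Among the genes called in a comparison, scaling by library size alone in place of TMM factors moved the share called higher from 51.3% to 68.6% for Matrigel, from 48.0% to 67.9% for KPC, from 51.6% to 37.5% for 2D against day 7 and from 53.1% to 31.9% for 2D against day 13.

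**Figure D1:**
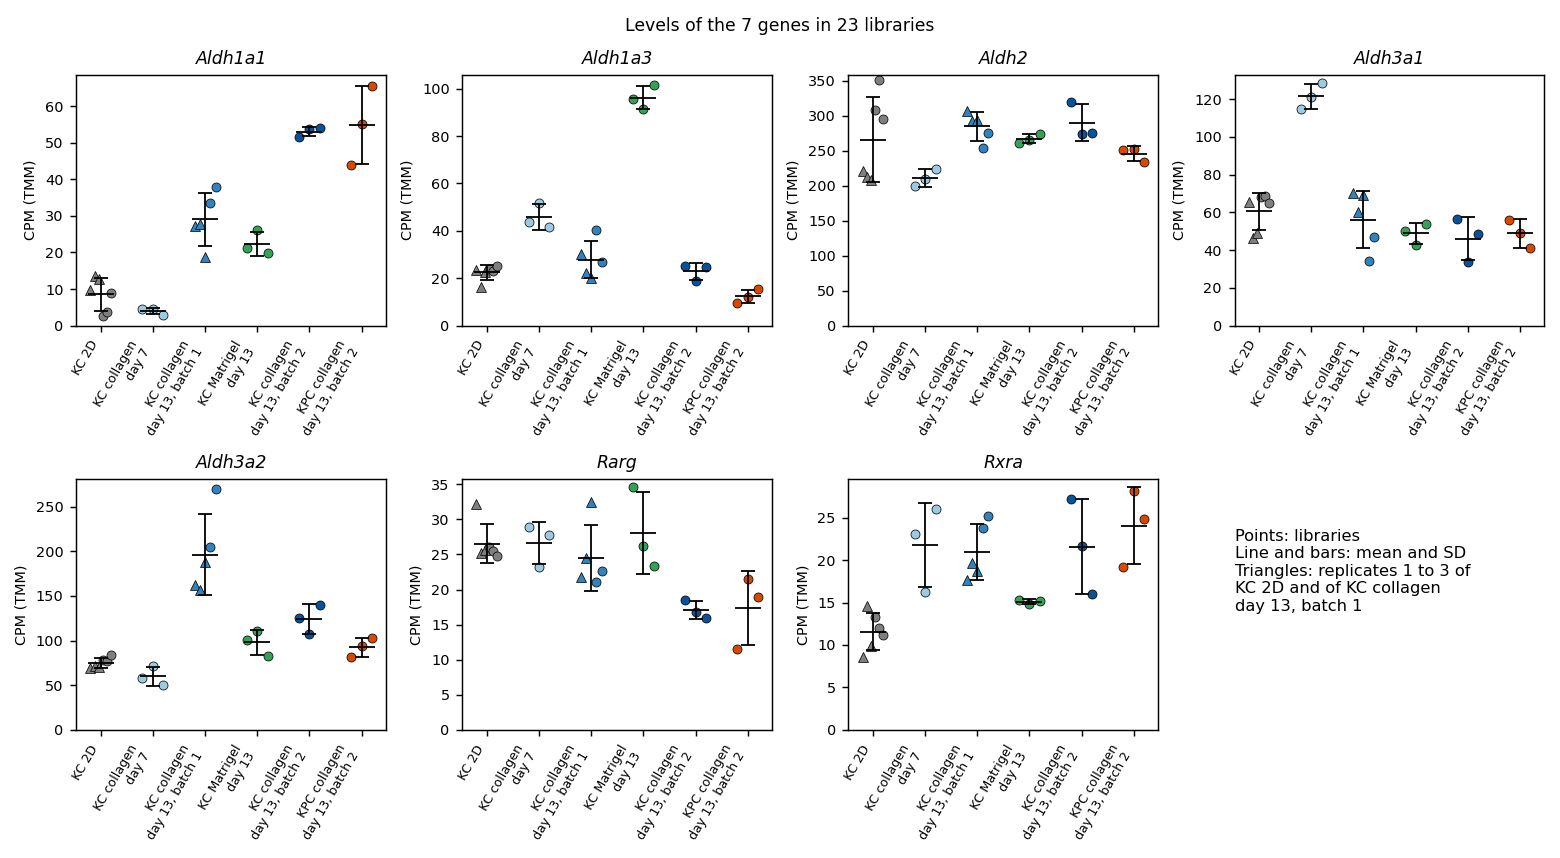
Levels of the 7 genes in all 23 libraries, in CPM scaled with TMM factors (y axis, from 0), by group (x axis). Points are libraries, the line and bars are mean and SD, and triangles are replicates 1 to 3 of the 2 groups that fell into sets. Aldh1a3 was highest in the 3 Matrigel libraries, Aldh3a1 in the 3 day 7 libraries and Aldh3a2 in the 5 collagen day 13 libraries of batch 1, each without overlap with any other group.

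Aldh1a1 (ENSMUSG00000053279.8), a cytosolic enzyme that makes retinoic acid from retinal, had the widest range of the 7. Its mean was 13.7 times higher in the highest group, KPC of batch 2, than in the lowest, day 7 of batch 1. The gene lies on the plus strand of chromosome 19 (GRCm38, chr19:20492715-20643465). At day 7 in collagen its level was 4.41, 4.65 and 2.98 CPM, and at day 13 in batch 1 it was 27.4, 27.8, 18.7, 33.6 and 37.8 CPM. Every day 13 library thus lay above every day 7 library, with a log2 fold change of -2.83 (SE 0.33) for the earlier day. The 2D libraries ran from 2.74 to 13.6 CPM with a median of 9.25 CPM, all below the collagen day 13 libraries, at a log2 fold change of -1.94 (SE 0.26). Within 2D, replicates 1 to 3 averaged 12.02 CPM ± 2.08 (SD, n = 3) and replicates 4 to 6 averaged 5.14 CPM ± 3.25 (SD, n = 3), and with replicates 1 to 3 alone the log2 fold change was -1.24. Matrigel organoids had 21.2, 26.2 and 19.8 CPM, within the range of collagen organoids of the same day and batch. In batch 2 the KC collagen organoids had 51.6, 53.7 and 54.0 CPM and the KPC organoids 44.1, 55.1 and 65.5 CPM. The KC and KPC libraries overlapped (log2 fold change 0.05, SE 0.25), whereas all 3 KC libraries of batch 2 exceeded all 5 of batch 1 by a log2 fold change of 0.87 (SE 0.23). Aldh1a1 thus differed between batches with cells, matrix and day the same. Apart from the range over all groups, which crosses batches and lines, the values of day 7, 2D and Matrigel were compared only within batch 1. The counts behind these levels were low, at 6 to 15 in 2D and 7 to 12 at day 7 against 39 to 75 at day 13 in batch 1.

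A close relative, Aldh1a7 (ENSMUSG00000024747.3), lies 49487 bases from Aldh1a1 on the minus strand of the same chromosome. It is no member of the 7 and was named by the rule for pathway genes. RefSeq holds a pair of starts for Aldh1a1, at 20492583 and at 20601968, and the second, which lies inside the gene as GENCODE draws it, was chosen because the bases before it match those before Aldh1a7. The 240 bases from 250 to 11 bases before that start and before the start of Aldh1a7 are shown. The window before the first start of Aldh1a1 held neither CCAAT nor GGGTCA. They are read 5′ to 3′ along the gene, from RefSeq promoter sequences on GRCm38.p6, at chr19:20601718-20601957 (plus strand) and chr19:20727567-20727806 (minus strand), and contain no annotated exon. Capitals mark CCAAT boxes and TGACCC, which is GGGTCA read on the other strand, a sequence of the kind that nuclear receptors bind.
Aldh1a1: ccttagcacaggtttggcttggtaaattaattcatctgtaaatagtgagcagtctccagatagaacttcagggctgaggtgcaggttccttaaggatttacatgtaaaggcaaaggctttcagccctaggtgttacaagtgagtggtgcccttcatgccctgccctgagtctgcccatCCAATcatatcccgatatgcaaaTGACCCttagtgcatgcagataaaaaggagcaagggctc
Aldh1a7: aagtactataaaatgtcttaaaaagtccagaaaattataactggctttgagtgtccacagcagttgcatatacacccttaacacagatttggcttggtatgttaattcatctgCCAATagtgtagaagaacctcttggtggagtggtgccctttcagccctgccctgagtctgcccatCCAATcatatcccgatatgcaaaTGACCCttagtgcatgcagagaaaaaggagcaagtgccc
Of the last 60 bases, 57 were identical at the same distance from the start, beside 119 of all 240. A CCAAT box 72 bases before the start and the GGGTCA 49 bases before the start on the other strand stood at the same place in both. CCAAT was found on either strand in 33.8% and GGGTCA in 11.7% of 32536 promoter windows of 250 bases. None of the 438 windows of 63 bases (the length of the cDNA read) in the last 500 bases of either transcript occurred exactly in another gene's transcripts, so exact reads from there separate the genes. The level of Aldh1a7 was 1.76 CPM ± 0.614 (SD, n = 3) at day 7 and 15.0 CPM ± 2.08 (SD, n = 5) at day 13 in collagen, and it was called lower at day 7 (log2 fold change -3.07, SE 0.38, adjusted p = 3.1e-07). Unlike Aldh1a1, Aldh1a7 averaged 8.83 CPM ± 2.07 (SD, n = 3) in KPC and 16.8 CPM ± 4.36 (SD, n = 3) in KC organoids of batch 2, a difference called at an adjusted p of 0.065 (log2 fold change -0.91, SE 0.33) that lost the call in 3 of 6 repeats with 1 library left out.

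**Figure D2:**
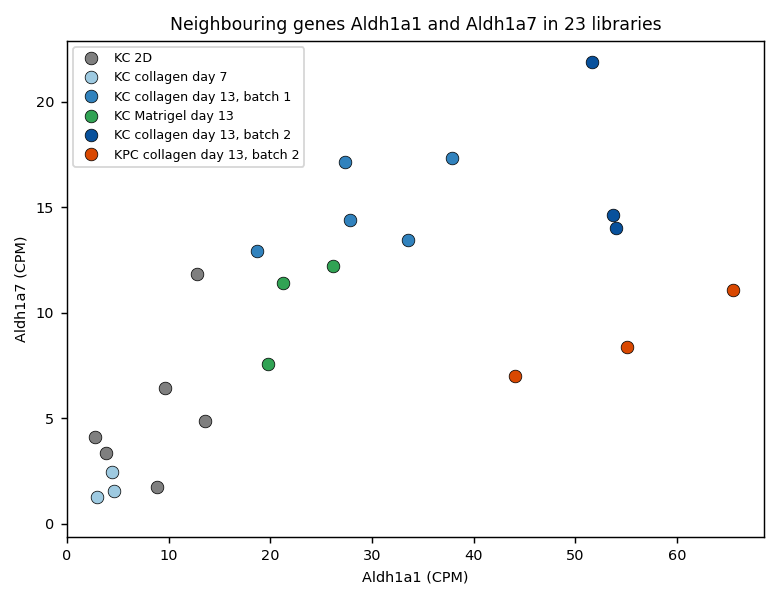
Level of Aldh1a7 (y axis, CPM) against that of its neighbour Aldh1a1 (x axis, CPM) in the 23 libraries, colored by group. The day 7 libraries lie at the lower left with 3 of the 2D libraries close by, and the 3 KPC libraries lie to the right of batch 1 at 7.03 to 11.1 CPM of Aldh1a7.

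Aldh1a3 (ENSMUSG00000015134.15; minus strand, chr7:66390890-66427517), another enzyme of retinoic acid synthesis, was highest in Matrigel, with 95.6, 91.6 and 101 CPM. Collagen organoids of day 13 in batch 1 had 30.1, 22.1, 20.1, 40.3 and 26.8 CPM. All Matrigel libraries lay above all collagen libraries, at a log2 fold change of 1.78 (SE 0.16), or 3.43-fold. At day 7 in collagen the level was 43.6, 51.9 and 41.8 CPM, above all day 13 libraries by a log2 fold change of 0.71 (SE 0.17). The 2D libraries, at 16.5 to 25.3 CPM with a median of 23.3 CPM, lay below day 7 and overlapped day 13. In batch 2 the KC organoids had 25.2, 18.8 and 24.7 CPM and the KPC organoids 9.58, 11.97 and 15.3 CPM, without overlap and with a log2 fold change of -0.88 (SE 0.25) for KPC against KC. Aldh1a3 and Aldh1a1 were thus ordered differently over the 6 groups: Aldh1a3 was higher and Aldh1a1 lower at day 7 than at day 13, and in KPC Aldh1a3 was lower while Aldh1a1 overlapped. The root mean square difference between their centred profiles (group means of log2 CPM with a prior count of 2) was 1.84, the highest of the 21 pairs. The third enzyme of this step, Aldh1a2, had at most 6 counts in any library.

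Aldh2 (ENSMUSG00000029455.14; minus strand, chr5:121566027-121593824), the mitochondrial enzyme that oxidises acetaldehyde, varied least, by 1.37 times between the highest and lowest group mean. Its group means lay between 211 CPM ± 12.4 (SD, n = 3) at day 7 and 290 CPM ± 26.3 (SD, n = 3) in the KC organoids of batch 2. The 3 day 7 libraries, at 200 to 224 CPM, lay below the 5 day 13 libraries of batch 1, at 254 to 307 CPM (log2 fold change -0.43, SE 0.14). KPC libraries (233 to 253 CPM) lay below KC libraries of batch 2 (274 to 320 CPM), at a log2 fold change of -0.24 (SE 0.16). In the 2D group replicates 1 to 3 had 208 to 221 CPM and replicates 4 to 6 had 296 to 351 CPM. Exons of Aldh2 overlap Gm42879 on the other strand, and without a stated strand setting their reads cannot be told apart.

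Aldh3a1 (ENSMUSG00000019102.10; plus strand, chr11:61207537-61218421), a cytosolic enzyme that clears lipid aldehydes and is known as a target of the aryl hydrocarbon (Ah) receptor, was highest at day 7. It had 115, 121 and 128 CPM at day 7 and 70.0, 60.4, 69.4, 34.5 and 46.8 CPM at day 13 in batch 1. No library of another group reached the day 7 level, and the log2 fold change of day 7 was 1.11 (SE 0.18) against day 13. The 2D libraries had 46.6 to 68.7 CPM with a median of 65.1 CPM, below day 7 by a log2 fold change of -0.99 (SE 0.17). The other 5 groups overlapped in sequence, with means from 46.1 CPM ± 11.6 (SD, n = 3) in the KC organoids of batch 2 to 60.5 CPM ± 9.86 (SD, n = 6) in 2D. In collagen at day 13 of batch 1, replicates 4 and 5 lay below replicates 1 to 3.

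Aldh3a2 (ENSMUSG00000010025.19; minus strand, chr11:61223417-61267464), the fatty aldehyde dehydrogenase of the endoplasmic reticulum, lies tail to tail with Aldh3a1, with 4995 bases between their 3' ends, and had another pattern. It had 163, 157, 188, 205 and 270 CPM in collagen at day 13 of batch 1, above all libraries of the other groups. At day 7 it had 58.3, 71.7 and 49.9 CPM, at a log2 fold change of -1.71 (SE 0.16), so that Aldh3a1 was higher and Aldh3a2 lower at day 7. Matrigel organoids had 101, 111 and 82.7 CPM, lower than collagen by a log2 fold change of -0.996 (SE 0.16). The 2D libraries had 69.8 to 83.6 CPM with a median of 74.3 CPM, lower than collagen day 13 by a log2 fold change of -1.38 (SE 0.13). In batch 2 the KC organoids had 125, 107 and 140 CPM and the KPC organoids 81.1, 94.0 and 102 CPM, a log2 fold change of -0.42 (SE 0.18) for KPC. Batch 2 itself was lower than batch 1 by a log2 fold change of -0.66 (SE 0.16) in KC cells. The 52 bases before the RefSeq start of Aldh3a2 (chr11:61267187-61267238, minus strand), as far as the next annotated exon, are shown for contrast with Aldh1a1, with the CCAAT box in capitals.
Aldh3a2: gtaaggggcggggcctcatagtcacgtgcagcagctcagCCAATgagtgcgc
They hold CCAAT 13 bases before the start and no GGGTCA.

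Rarg (ENSMUSG00000001288.15; minus strand, chr15:102234938-102257517), a receptor for retinoic acid, varied little within batch 1. Its 4 group means of batch 1 ran from 24.5 CPM ± 4.68 (SD, n = 5) in collagen at day 13 to 28.0 CPM ± 5.88 (SD, n = 3) in Matrigel, and their libraries overlapped. In batch 2 it was lower, at 18.5, 16.7 and 16.0 CPM in KC and 11.5, 21.5 and 19.0 CPM in KPC organoids, and KC of batch 2 lay below batch 1 without overlap (log2 fold change -0.52, SE 0.20). KPC and KC overlapped (log2 fold change 0.03, SE 0.23).

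Rxra (ENSMUSG00000015846.14; plus strand, chr2:27676440-27762957), the partner that RAR and many other nuclear receptors need on DNA, was lowest in 2D. The 2D libraries had 8.59 to 14.6 CPM with a median of 11.6 CPM, below the day 7 libraries (23.05, 16.3 and 26.0 CPM) by a log2 fold change of -0.88 (SE 0.20) and below the collagen day 13 libraries of batch 1 (17.6, 19.7, 18.7, 23.7 and 25.2 CPM) by -0.83 (SE 0.18). Matrigel organoids had 15.3, 14.8 and 15.2 CPM, between 2D and collagen, with no overlap on either side. Their log2 fold change against collagen was -0.47 (SE 0.20), and -0.28 against replicates 1 to 3 of the collagen group alone. The 4 collagen groups overlapped, including KPC with 19.2, 28.1 and 24.8 CPM. The counts were low, from 8 to 61 per library. The 250 bases before the second RefSeq start of Rxra (chr2:27709042-27709291, plus strand) are shown because they hold 3 copies of receptor-type elements, in capitals, AGGTCA or GGGTCA or their reverse TGACCT or TGACCC.
Rxra: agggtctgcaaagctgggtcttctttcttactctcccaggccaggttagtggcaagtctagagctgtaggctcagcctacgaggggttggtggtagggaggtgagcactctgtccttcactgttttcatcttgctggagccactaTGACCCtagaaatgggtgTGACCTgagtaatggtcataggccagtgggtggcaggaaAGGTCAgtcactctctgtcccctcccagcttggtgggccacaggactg
The window before the first start of Rxra, at 27677201, held none of these elements. AGGTCA was present on either strand in 4567 and GGGTCA in 3801 of the 32536 promoter windows. How many windows hold 3 such elements was not counted. A known retinoic acid element is a direct repeat of such elements spaced by 5 bases, named DR5. Here a G or T was allowed at the third base and an A or G at the first. It was found in 0.0891% of windows and in none of those held for the members, which were 2 for Aldh1a1, 1 for Aldh3a2, 2 for Rarg and 2 for Rxra. Among the listed genes it was found before Rarb (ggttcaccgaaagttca) and Cyp26a1 (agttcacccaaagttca), both textbook targets of retinoic acid, and neither gene passed the filter on low counts, with at most 4 and 1 counts in a library. Direct repeats spaced by 2 or 1 bases were searched too. They were found in 0.175% and 0.166% of windows and in none of those held for the members. A match is a description of letters in this window and not a bound site.

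**Figure D3:**
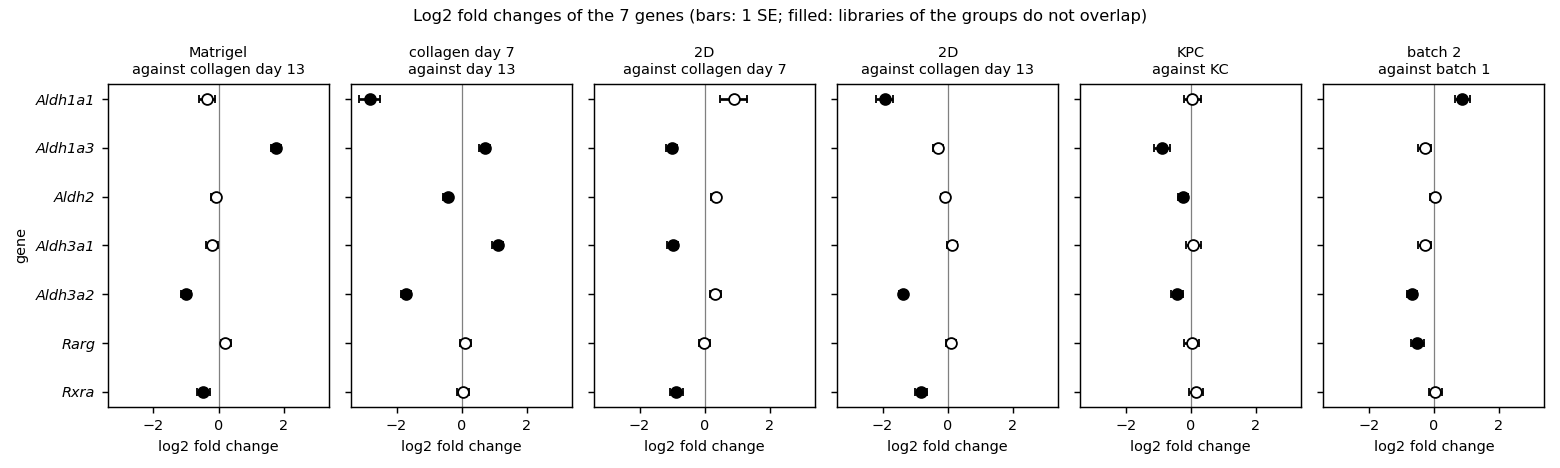
Log2 fold change (x axis) of the 7 genes (y axis) in 6 comparisons, with bars of 1 SE from the edgeR fit. Filled points mark genes whose libraries did not overlap between the groups. Aldh1a1 and Aldh3a2 lie far to the left at day 7 and in 2D against day 13, and Aldh1a3 far to the right in Matrigel.

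Counted over the 7, the libraries of the groups did not overlap for 3 genes in Matrigel against collagen (19.5% of all tested genes), 5 in day 7 against day 13 (48.3%), 3 in KPC against KC (37.3%), 3 in 2D against day 7 (32.3%), 3 in 2D against day 13 (20.3%) and 3 in batch 2 against batch 1 (35.9%). Nothing is read from these counts, since the 7 genes were chosen by these levels. The median log2 fold change of all tested genes lay between -0.05 and 0.02 in these comparisons.

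The genes with the profile most alike over the 6 group means were named for the 4 members whose group means differed by more than 1 on the log2 scale. For Aldh1a1 they were Foxa3, a transcription factor of endoderm, Tent5a and Smim24, with root mean square differences of 0.21, 0.24 and 0.26. Foxa3 averaged 2.36 CPM ± 1.03 (SD, n = 3) at day 7, 25.7 CPM ± 9.89 (SD, n = 5) at day 13 in batch 1 and 50.1 CPM ± 6.59 (SD, n = 3) in KPC organoids. For Aldh1a3 they were Il18rap, Tnfaip2 and the Notch ligand Dll1 (0.20, 0.33 and 0.43). Tnfaip2 averaged 373 CPM ± 13.5 (SD, n = 3) in Matrigel and 148 CPM ± 16.8 (SD, n = 5) in collagen. For Aldh3a1 they were Naa50, Tmem120a and the actin-binding Pfn1 (0.03, 0.06 and 0.07), and for Aldh3a2 they were Tor3a, Tmem189 and the potassium channel gene Kcnk5 (0.10, 0.14 and 0.14). The likeness over 6 means says nothing of shared control.

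**Figure D4:**
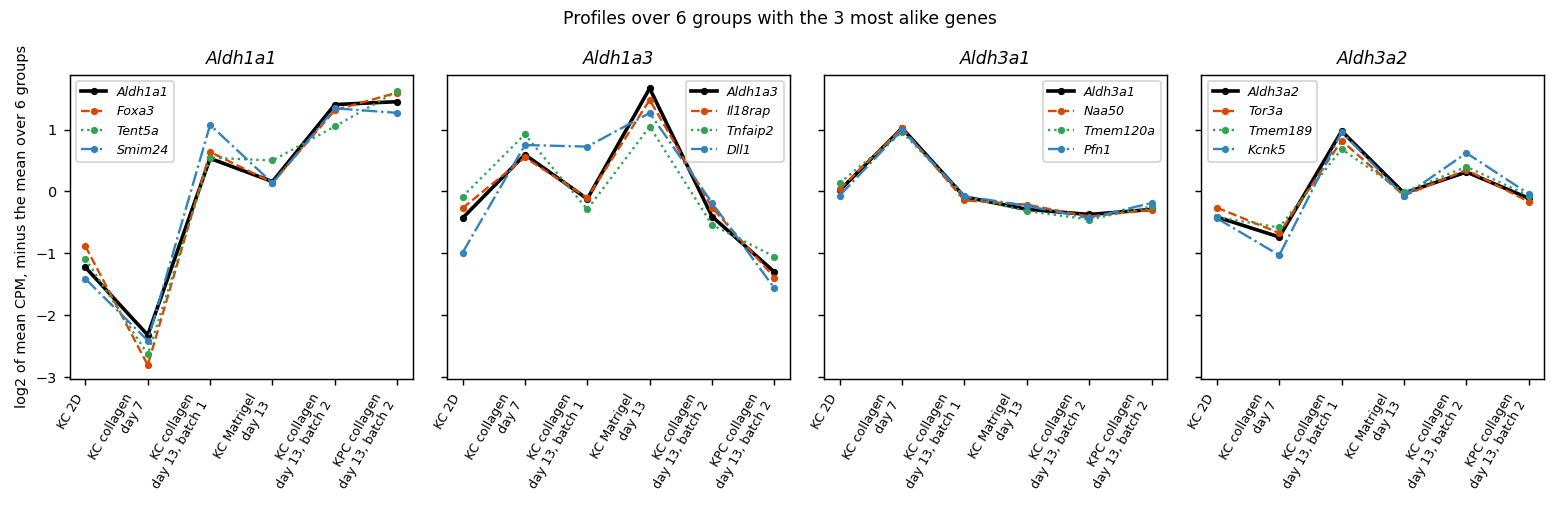
Profiles of 4 of the genes (black) and their 3 most alike genes (colored) over the 6 groups (x axis), as log2 of the mean CPM minus the mean over the groups (y axis). Aldh1a1 dips at day 7, Aldh1a3 peaks in Matrigel, Aldh3a1 peaks at day 7 and Aldh3a2 peaks in collagen at day 13 of batch 1.

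To place the 7 in their pathway, 78 other genes of aldehyde and retinoid metabolism, retinoid carriers, receptors, coregulators and RXR partners were listed by hand with earlier results of these data known. Of these, 67 were in the table and 46 passed the filter. They were tested with edgeR's quasi-likelihood test and called at a Benjamini-Hochberg adjusted p under 0.1 over all 11144 genes. The enzymes that break down retinoic acid were too low for the test: Cyp26a1 had at most 1 count and Cyp26b1 at most 26 counts in a library, the latter in Matrigel.

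**Figure D5:**
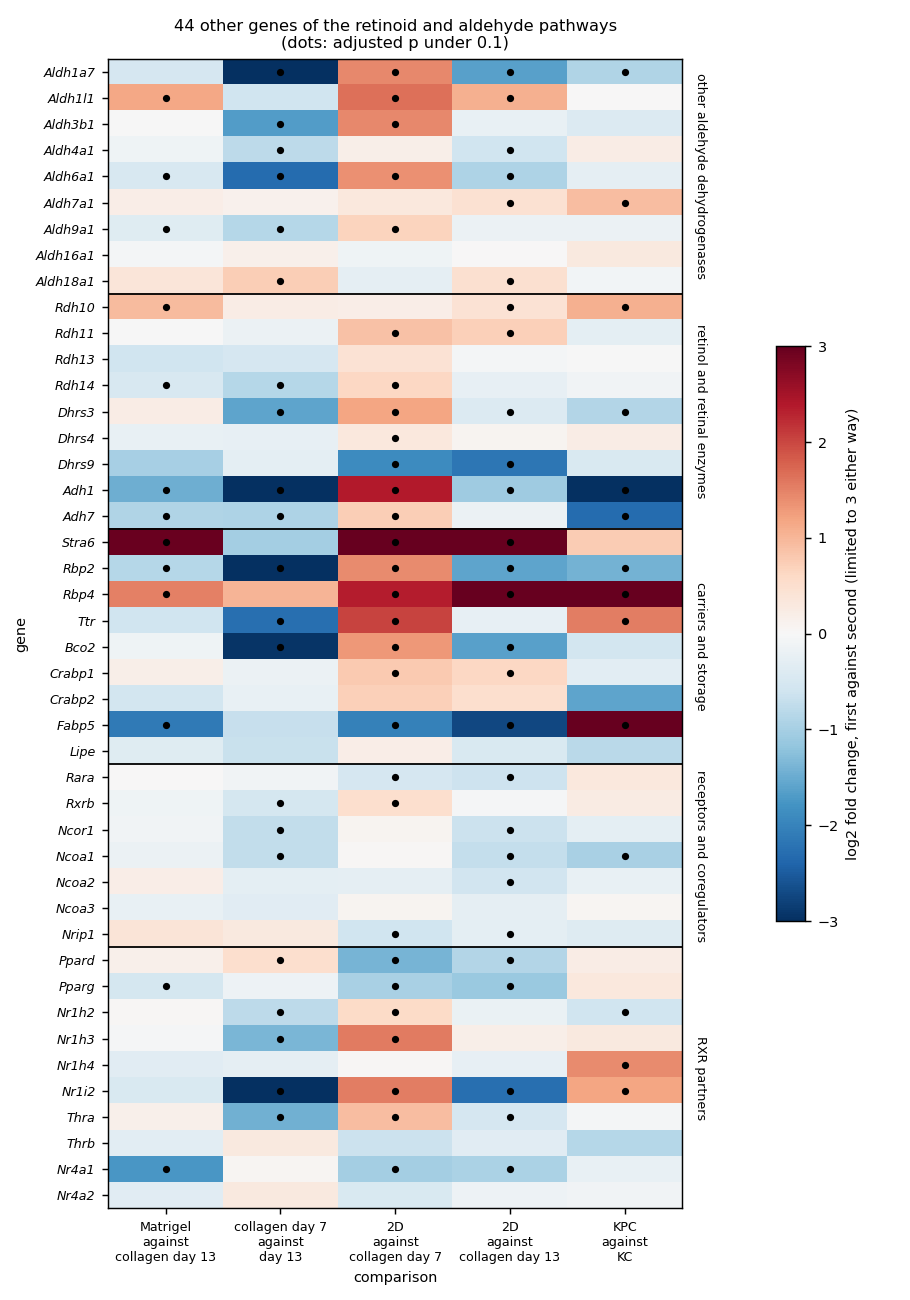
Log2 fold change (color, limited to 3 in either direction) of 44 of the 46 tested pathway genes (y axis, grouped by role) in 5 comparisons (x axis), first group against second. Black dots mark adjusted p under 0.1. The column of day 7 against day 13 shows 19 lower and 2 higher calls, and that of 2D against day 7 shows 22 higher and 7 lower calls.

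In Matrigel against collagen at day 13, Stra6 and Rdh10 were higher and the alcohol dehydrogenase genes Adh1 and Adh7 were lower. Of the 9 enzymes between retinol and retinal 1 rose and 3 fell, and of the 10 genes of carriers and storage 2 rose and 2 fell. Stra6, the membrane receptor for retinol and a retinoic acid target, rose from 1.81 CPM ± 0.980 (SD, n = 5) in collagen to 14.5 CPM ± 4.20 (SD, n = 3) in Matrigel, a log2 fold change of 2.95 (SE 0.37, adjusted p = 4.2e-06). Rdh10, which makes retinal from retinol, rose from 280 CPM ± 14.7 (SD, n = 5) to 537 CPM ± 30.01 (SD, n = 3), by 0.94 on the log2 scale (SE 0.12, adjusted p = 3.6e-06). Tgm2, a transglutaminase induced by retinoic acid, rose by 1.79 (adjusted p = 9.9e-07). Rbp4, the plasma carrier of retinol, was called higher by 1.52 (adjusted p = 0.062), but the call was lost in 7 of 8 repeats without 1 library. Its libraries did not overlap, at 30.1 CPM ± 3.61 (SD, n = 3) in Matrigel and 10.4 CPM ± 1.99 (SD, n = 5) in collagen. In those repeats its log2 fold change was 1.43 to 1.63. The fit estimates the spread over all 6 groups, and Rbp4 had an SD of 80.9 CPM in 2D. The part of 2D in the lost calls was not tested. Adh1 and Adh7, alcohol dehydrogenases that also oxidise retinol, fell by 1.46 and 0.90, Rbp2, an intracellular retinol carrier of the gut, fell by 0.86, and the orphan receptor Nr4a1, a partner of RXR, fell by 1.74. Pparg fell by 0.52 (adjusted p = 0.031), a call lost in 1 of 8 repeats without 1 library, and the antiproliferative gene Btg2, listed as a retinoic acid target, fell by 1.51. Of the 46 genes, 4 rose (8.7%, beside 6.62% of all tested genes) and 9 fell (19.6%, beside 6.29%), with a median log2 fold change of -0.14. Of the 7 tested retinoic acid targets, which overlap the pathway lists, 2 rose and 1 fell. In the Ah receptor list 1 of 6 rose and 1 fell. Ahr itself rose by 1.19 (adjusted p = 0.0029) and Nqo1, a target shared with the oxidative stress response, fell by 1.26 (adjusted p = 3.9e-05). The 9 lower calls became 5 with library size alone, without Matrigel replicate 1, or against collagen replicates 1 to 3 alone.

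At day 7 against day 13 in collagen, most of the called pathway genes were lower at day 7. Of the 46 genes, 20 fell (43.5%, beside 27.1% of all tested genes) and 3 rose (6.52%, beside 28.1%), and the median log2 fold change was -0.56. The largest falls among genes of at least 10 CPM were those of Adh1, from 33.3 CPM ± 10.3 (SD, n = 5) at day 13 to 3.03 CPM ± 0.441 (SD, n = 3) at day 7 (log2 fold change -3.43, SE 0.40, adjusted p = 1.3e-07), Aldh1a7, Rbp2 (-2.99, SE 0.22, adjusted p = 5.3e-11), the carotene-cleaving Bco2 (-2.93, SE 0.41, adjusted p = 1.6e-06) and Aldh6a1 of valine breakdown (-2.30, SE 0.22, adjusted p = 3.3e-09). Among other aldehyde dehydrogenases 5 of 9 fell and 1 rose, and among the enzymes between retinol and retinal 4 of 9 fell and none rose. Among those that rose were Aldh18a1 of proline synthesis (0.75, adjusted p = 0.00015) and the lipid-sensing receptor Ppard (0.51, adjusted p = 0.039), the last lost in 4 of 8 repeats without 1 library. Of the retinoic acid targets 4 of 7 fell, among them Btg2 (-2.04), Dhrs3, which returns retinal to retinol (-1.59), and Tgm2 (-1.55), all with an adjusted p of 0.00013 or lower. In the Ah receptor list, whose receptor is known to act on Aldh3a1, 1 of 6 rose and 1 fell. They are named after their values were seen: Cyp1a1, a cytochrome induced by that receptor, had 15 to 19 counts at day 7 and 0 to 3 counts at day 13 (adjusted p = 1.5e-05), and Ahr fell by 0.68 (adjusted p = 0.078). The other 4 tested genes of the list were not called. Among them, Nqo1 averaged 33.9 CPM at day 7 and 31.5 CPM at day 13, and Tiparp 33.1 and 39.8 CPM. A link between this list and the level of Aldh3a1 was not tested. The count of genes that rose among the 46 became 6 without day 7 replicate 1.

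In KPC against KC organoids of batch 2, the carrier genes Rbp4, Ttr and Fabp5 were higher and the alcohol dehydrogenase genes Adh1 and Adh7 lower. Of the 10 tested genes of carriers and storage 3 rose and 1 fell, and of the 9 enzymes between retinol and retinal 1 rose and 3 fell. Rbp4 rose from 7.65 CPM ± 1.02 to 79.2 CPM ± 15.0 (SD, n = 3 each; log2 fold change 3.36, SE 0.62, adjusted p = 0.00037). Fabp5, which carries retinoic acid and fatty acids, rose from 1.11 CPM ± 1.38 to 16.0 CPM ± 2.25 (SD, n = 3 each; 3.76, SE 0.58, adjusted p = 5e-05). The low counts of Fabp5 in KC (4, 0 and 1) leave its size uncertain: the log2 fold change was 5.31 without KC replicate 1 and 1.94 against all 8 KC libraries, whose batch 1 part averaged 5.57 CPM. Ttr, the partner of Rbp4 in plasma, rose by 1.53. Rdh10 rose by 1.06 (adjusted p = 5.2e-06) and the bile acid receptor Nr1h4 by 1.42. Adh1 fell by 3.15 (adjusted p = 0.0011), with 1, 0 and 6 counts in KPC, and by 5.08 without KPC replicate 3. Adh7 fell by 2.32, Rbp2 by 1.43 and Aldh1a7 as given above. Ncoa1 was called lower by 0.98, a call lost without KC replicate 3 (adjusted p = 0.17). Of the 46 genes, 7 rose (15.2%, beside 9.58% of all tested genes) and 7 fell (15.2%, beside 10.4%). Among retinoic acid targets Dhrs3 fell by 0.88 and Btg2 by 0.76, while Tgm2 was called higher by 0.84 (adjusted p = 0.053), lost in 3 of 6 repeats without 1 library. Cyp1b1, a cytochrome of the Ah receptor list that can also oxidise retinol, had 34, 39 and 55 counts in KPC and 1, 0 and 0 in KC organoids, a ratio of 111 with a counting interval of 19.6 to 4414 (exact, 95%, counting error only; adjusted p = 3e-08), whereas KC organoids of batch 1 averaged 2.497 CPM of Cyp1b1. Nqo1 fell by 1.70. Taking all 8 KC collagen libraries of day 13 turned the 7 lower calls into 14, a setting that mixes batch with line, since KPC is batch 2 alone.

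The pathway genes of 2D cells were compared with collagen organoids of both days. Against day 7, 23 of the 46 genes rose in 2D (beside 26.4% of all tested genes) and 8 fell (17.4%, beside 24.8%). Against day 13, 8 rose (17.4%, beside 26.3%) and 19 fell (41.3%, beside 23.3%). The median log2 fold change was 0.47 against day 7 and -0.24 against day 13. Stra6 was higher in 2D against both: it had 18.2 CPM ± 5.30 (SD, n = 6) in 2D, 2, 3 and 1 counts at day 7, a ratio of 21.7 (counting interval 9.75 to 59.9), and a log2 fold change of 3.30 (SE 0.33, adjusted p = 3.1e-08) against day 13. Rbp4 was also higher against both (2.36 and 3.37, adjusted p = 0.00018 and 6.8e-07), with 185 to 193 CPM in replicates 1 to 3 and 35.0 to 46.5 CPM in replicates 4 to 6 of 2D. Tgm2 was higher by 2.65 and 1.11. Adh1 rose by 2.38 against day 7 and fell by 1.06 against day 13, or by 1.95 with 2D replicates 1 to 3 and by 0.71 with replicates 4 to 6. Pparg was lower in 2D against both (-0.98 and -1.12, adjusted p = 8.6e-06 and 1.9e-07), as was Nqo1 (-1.28 and -1.17). Against day 7, Ttr (2.02, or 1.33 with 2D replicates 1 to 3) and the oxysterol receptor Nr1h3 (1.55) rose, while Ppard (-1.40), Nr4a1 (-1.01) and Nrip1 (-0.59) fell. Against day 13, Rdh11 (0.71) rose, Aldh18a1 was called higher by 0.48 but not with library size alone (0.26, adjusted p = 0.15), and Crabp1 was called higher by 0.63 but lost the call in 4 of 11 repeats without 1 library and with 2D replicates 4 to 6 alone (0.10, adjusted p = 0.77), while Bco2 (-1.63), Aldh1a7 (-1.63), Rbp2 (-1.58) and Btg2 (-2.14) fell. Dhrs3 (-0.40, adjusted p = 0.035) was not called with 2D replicates 4 to 6 alone (adjusted p = 0.33), and Nrip1 (-0.30, adjusted p = 0.072) lost the call in 3 of 11 repeats without 1 library. Tiparp, an Ah receptor target, fell by 0.66 against day 13 (adjusted p = 0.0019) and was called lower by 0.39 against day 7 (adjusted p = 0.085), lost in 5 of 9 repeats without 1 library. The 8 higher calls against day 13 became 4 with library size alone. Several of the named genes overlap exons of another gene, and their reads may be shared. Among them are Tgm2 with Rprd1b, Aldh6a1 with Bbof1, and Tmem189 with Gm20431 and Cebpb. Adh1, Adh7, Ahr, Bco2, Ncoa1, Nr1h3 and Tiparp overlap noncoding or pseudogene transcripts in this way.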

How the data were processed

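The 23 libraries were made by the authors from the 3' ends of poly(A) RNA with UMIs and sequenced with a cDNA read of 63 bases. Per the study's methods, the authors used the Drop-seq pipeline to align to GRCm38 and to count UMIs over GENCODE M25 genes. Whether the counting used the strand is not stated. The deposited values are raw counts, whole numbers without normalization. Depth limits the precision: 3 counts, the floor taken here for a count of 0, correspond to 1.16 to 3.22 CPM in a library. Intervals cover counting error only.

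Counts were fitted in R 4.3.3 with edgeR 4.0.16 (TMM factors, filterByExpr, quasi-likelihood test) in 1 model of the 6 groups. Each SE is the absolute log2 fold change over the square root of F. Nothing in the labels says that the replicates are separate cultures beyond a biological replicate number. The study calls its Matrigel, day 7 and 5 of its day 13 collagen samples independent or individual experiments. Each genotype is 1 line from 1 mouse, so p-values measure the spread between these libraries. For each gene that spread is estimated over all 6 groups, so groups outside a comparison also weigh on its p. The 7 genes and all gene lists were chosen with earlier results of these data known. The 7 genes were given no p. Pathway genes were named by rule: per comparison up to 5 called in each direction with at least 10 CPM in the higher group, up to 3 in each direction for the retinoic acid and Ah receptor lists, and the 3 most alike profiles for each member ranging over 1 on the log2 scale. Cyp26a1, Cyp26b1, Aldh1a2 and Rarb were added after their values were seen. Alternatives were DESeq2 1.42.0, its size factors in edgeR, library size alone, a threshold of 0.05, a filter of only 1 count, a stricter one of 10 counts per library, the compared groups alone, all 8 KC collagen day 13 libraries, a replicate block, a prior count of 5 and each library left out. The sets of 2D and collagen day 13 replicates were tried after seeing the data. Samples with the same replicate number deviated together weakly or not at all (correlations from -0.12 to 0.19), and no pairing was used in the main fit. With 3 to 5 pairs per comparison this check cannot exclude a pairing. The fit was tested on simulated data. Positions come from GENCODE M21, promoters from RefSeq (GRCm38.p6), read in Python 3.11.15. Listed genes outside the table were not analysed here, and a few genes and alleles are not reported here, although genes among them count in the list totals.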

Additional observations from a re-analysis of the deposited data

Results flagged for a closer look

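In 70 groups of 5 or 6 libraries over 35 genes, 4 held a library whose gap to its nearest neighbour was a large part of the group's range, and chance alone does this in about 1 in 20 groups. Aldh1a3 was 16.5 CPM in 2D replicate 2, on 17 counts, while the other 5 libraries had 22.7 to 25.3 CPM. Rarg was 32.2 CPM in 2D replicate 1, on 30 counts, while the others had 24.7 to 26.0 CPM. In collagen at day 13 of batch 1, Adh1 was 50.8 CPM in replicate 2 and 24.2 to 31.6 CPM in the other 4. Pparg was 295 CPM in replicate 5 and 221 to 239 CPM in the others. The cause was not tested.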

How the results depend on the processing

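None of the 68 calls of pathway genes named by rule changed direction under the alternatives run (the day 7 values of Cyp1a1 and Ahr were not rerun), and the log2 fold changes of the 7 genes changed sign only in comparisons where the libraries overlapped. Of 186 alternative counts of called pathway genes, 173 stayed within 1.5 times the reported count. With at least 10 counts in every library, which tests fewer genes, the higher calls became 5 for 2D against day 13, 15 for 2D against day 7 and 3 for KPC, and the lower calls became 12 for 2D against day 13, 13 for day 7 and 4 for KPC. With library size alone, 2D against day 13 gave 4 higher and Matrigel 5 lower calls. Day 7 gave 5 higher calls when only the compared groups were fitted, and KPC gave 14 lower calls against all 8 KC libraries. Leaving out 1 library gave 2 to 6 higher calls for day 7, with 6 without its replicate 1, and 5 to 9 lower calls for Matrigel, with 5 without its replicate 1. Against collagen replicates 1 to 3, chosen after seeing the data, Matrigel also gave 5 lower calls. The causes of these shifts were not tested. With a replicate block, which shared numbers alone do not justify, calls were 5 higher and 7 lower for Matrigel, 4 and 20 for day 7, 7 and 8 for KPC, 23 and 9 for 2D against day 7, and 9 and 19 for 2D against day 13. Of 716 alternative log2 fold changes of the 7 genes, 15 moved by more than the spread between replicates. Against all 8 KC libraries Aldh1a1 had a log2 fold change of 0.55 in KPC and Aldh3a2 one of -0.87. These 8 libraries pool batch 1 and batch 2, while KPC is batch 2 alone, so that batch and line are mixed in this setting. In KC cells, batch 2 against batch 1 gave 0.87 for Aldh1a1 and -0.66 for Aldh3a2.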
